A study of Mus musculus with 50 samples.

Results

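The Usp17-like genes of the mouse, Usp17la, Usp17lb, Usp17lc, Usp17ld and Usp17le, were followed through 50 RNA-seq libraries of embryonic stem cells of strain TT2. The 5 genes were taken by name from both deposited tables of gene TPM, which hold 24412 and 24413 rows. TPM are transcript abundances corrected for transcript length and scaled to a fixed total in each library. Every one of the 25 groups had 2 libraries. The first table held 9 groups: control cells, Setdb1-KO, Suv39h1/2-DKO, Suv39h1/2;Setdb1-TKO, G9a-KO, G9a;Setdb1-DKO, G9a;Suv39h1/2-TKO, the loss of all these genes (G9a;Suv39h1/2;Setdb1-QKO, here QKO), and the same with Dux deleted as well (Dux-KO QKO). The second table held the 8 genotypes other than Dux-KO QKO in Tet-on-Dux cells, in which doxycycline (dox) switches on a Dux transgene, without and with dox. Per the genotype labels all 32 libraries of the second table, the controls included, lacked endogenous Dux, although their titles do not say so. The dose label was 0.2 for control and Setdb1-KO and 1 for the other 6 genotypes, with no unit given. The enzymes removed, G9a (encoded by Ehmt2), Suv39h1, Suv39h2 and Setdb1, all methylate lysine 9 of histone H3.

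In each table the library names carry 4 prefixes for the 8 genotypes, each prefix holding a pair that differs in Setdb1, and Dux-KO QKO has a prefix of its own. Loss of G9a, of Suv39h1/2 and of Dux was therefore always a comparison between prefixes, and it cannot be told apart from other differences between those lines. All groups without Setdb1 carried OHT in their titles and all other groups NT, terms that the labels leave unexplained, so Setdb1 loss and OHT cannot be told apart. The labels do not say that the 2 libraries of a group came from separate cultures, and p-values measure only the spread between these libraries.

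Usp17-like proteins are deubiquitinating enzymes, cysteine proteases that take ubiquitin off other proteins and so can keep them from being degraded. The mouse genes were first described as DUB genes, induced in blood cells by cytokines, and they are known as a young, tandemly copied family. They also belong to the genes transcribed in the embryo at the 2-cell stage and in the few embryonic stem cells that resemble that stage, a program that the homeobox protein Dux switches on. RefSeq lists Dub1 as a synonym of Usp17la, the DUB gene described as induced by interleukin-3, and Dub1a as a synonym of Usp17lb. It lists Dub2 for Usp17lc, described as induced by interleukin-2 in T cells, Dub2a for Usp17ld and Dub3 for Usp17le.

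All 5 are protein-coding genes on chromosome 7 in GENCODE M21 (GRCm38), in 2 clusters. Usp17ld (ENSMUSG00000057321.2, chr7:103249737-103252505, minus strand) and Usp17lc (ENSMUSG00000058976.4, chr7:103415072-103419880, plus strand) form the first. The second holds Usp17le (ENSMUSG00000043073.10, chr7:104768049-104777470, minus strand), Usp17lb (ENSMUSG00000062369.2, chr7:104840257-104842603, minus strand) and Usp17la (ENSMUSG00000054568.7, chr7:104857009-104862667, plus strand). Usp17lb and Usp17la point away from each other across a gap of 14406 bases. The longest transcripts of Usp17lc and Usp17ld were 97.8% identical over their aligned length, and the other pairs 85.7% to 94.7%.

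How near-identical copies shared reads decides how far single members can be read. Of all 150-base windows in the annotated transcripts of a member, the length of 1 read, 98.7% of those of Usp17la, 97.8% of Usp17lb and 99.2% of Usp17le occurred in no other gene. The share was 70.6% for Usp17lc and 63.9% for Usp17ld, which share the rest mostly with each other. The sources used here do not say how the authors divided reads that fit several copies, so the split between Usp17lc and Usp17ld in particular is uncertain.

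Because the members moved together in most comparisons, the bases before their start sites are shown here for the 4 members that have an entry in the RefSeq promoter table (GRCm38.p6). Each line gives the 250 bases before the RefSeq start, 5′ to 3′ on the gene's strand. The letters TATAAA and the letters CCAAT (or ATTGG, its reverse complement) are in capitals. The windows lie at chr7:104856766-104857015 (Usp17la, plus strand), chr7:104842584-104842833 (Usp17lb, minus strand), chr7:103416446-103416695 (Usp17lc, plus strand) and chr7:103252506-103252755 (Usp17ld, minus strand). Usp17le has no entry. RefSeq and GENCODE starts can differ. The whole window of Usp17lc lies inside its GENCODE span (chr7:103415072-103419880), so it is not upstream of the GENCODE gene start. The windows of Usp17la and Usp17lb reach a few bases into their GENCODE spans.
Usp17la: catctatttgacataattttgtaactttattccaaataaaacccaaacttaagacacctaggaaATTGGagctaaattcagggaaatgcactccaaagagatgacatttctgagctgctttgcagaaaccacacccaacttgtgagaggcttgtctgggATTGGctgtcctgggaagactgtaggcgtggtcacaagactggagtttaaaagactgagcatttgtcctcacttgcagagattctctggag
Usp17lb: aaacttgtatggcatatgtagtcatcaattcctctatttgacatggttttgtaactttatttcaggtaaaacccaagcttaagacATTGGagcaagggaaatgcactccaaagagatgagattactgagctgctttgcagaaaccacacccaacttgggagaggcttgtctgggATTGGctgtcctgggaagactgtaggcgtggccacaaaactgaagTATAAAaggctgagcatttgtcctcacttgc
Usp17lc: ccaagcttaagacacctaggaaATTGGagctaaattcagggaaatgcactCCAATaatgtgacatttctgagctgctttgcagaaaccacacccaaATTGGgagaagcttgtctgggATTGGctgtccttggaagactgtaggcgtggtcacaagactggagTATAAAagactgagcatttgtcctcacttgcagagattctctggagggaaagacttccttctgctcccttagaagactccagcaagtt
Usp17ld: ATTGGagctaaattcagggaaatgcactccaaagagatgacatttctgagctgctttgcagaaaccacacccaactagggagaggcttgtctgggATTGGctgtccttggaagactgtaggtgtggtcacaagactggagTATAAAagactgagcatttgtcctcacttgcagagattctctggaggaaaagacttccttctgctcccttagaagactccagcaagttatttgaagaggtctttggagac

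The 4 windows, read with the 50 bases after the start, were 86.4% to 96.8% identical in pairs. Searched on both strands, TATAAA stood in 3 of the 4, against 13.6% of 32851 promoters of the same length. It lay 31 bases before the RefSeq start of Usp17lb, 88 before that of Usp17lc and 110 before that of Usp17ld. CCAAT was in 4 of 4 (37.4% of all promoters) and CACCC in 4 of 4 (57.5%), the 2 motifs sharing no base in these windows. A match in these letters is a description, not a site of binding.

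The cells carried the markers of their label. All 10 pluripotency genes examined were at 1 TPM or more in every library, with sums of 6600 to 14872 TPM in the first table and 8191 to 14201 in the second, against 2.71 to 11.5 and 3.03 to 10.1 TPM for 8 fibroblast markers. The sum of 10 blood cell markers split by G9a without overlap. With endogenous Dux it was 2.62 to 6.33 TPM in the 8 libraries with G9a and 9.29 to 17.4 in the 8 without, in Dux-KO QKO 20.3 and 25.5, and among Tet-on-Dux cells 5.24 to 7.92 with G9a and 10.1 to 16.5 without. Cd3e, a chain of the T cell receptor complex, was at 0.0998 to 1.42 TPM in all libraries with G9a and at 4.65 to 12.7 in all without it, while Ptprc (CD45), found on nearly all white blood cells, stayed at 0 to 0.0925 in all 50 libraries. Fibroblast markers summed to 7.18 to 10.1 TPM with G9a and 3.03 to 7.08 without in the second table. In the first table their ranges overlapped among libraries with Dux, at 3.61 to 8.20 TPM with G9a and 2.71 to 6.21 without. In Dux-KO QKO their sums were 11.5 and 8.45 TPM. The part of these markers in the differences tied to G9a was not tested. Setdb1 mRNA was at 19.8 to 32.5 TPM in the 8 libraries labelled as lacking Setdb1 with Dux present and at 48.8 and 53.2 in control, log2 differences of -0.79 to -1.14. In Dux-KO QKO it was at 36.5 and 33.7. In the second table the lines labelled as lacking Setdb1 had 13.9 to 28.8 TPM, but Suv39h1/2-DKO, which keeps it by label, had only 29.2 to 42.1 against 52.5 to 71.0 in control, so the levels of these lines nearly met. Ehmt2 was at 7.38 to 30.2 TPM in the G9a knockouts with Dux present and 83.6 and 91.1 in control. TPM carry no depth, so depth is unknown, and 11855 to 13274 genes reached 1 TPM per library in the first table and 11742 to 12690 in the second. In 6 libraries of the second table, spread over 6 groups, RNAs of 14 Snhg genes averaged above 4 on the log2 scale. The other libraries of that table had 2.57 to 3.49, and all 18 of the first table had 4.60 to 5.22. A high Snhg level below means high within the second table. These 6 were replicate 1 of the control line without dox and replicate 2 of Setdb1-KO without and with dox, of G9a-KO with dox and of G9a;Setdb1-DKO without and with dox.

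In control cells of the first table the family was near the limit of what a TPM table resolves. Usp17la stood at 0.664 and 0.559 TPM, Usp17lb at 0.684 and 0.962, Usp17lc at 1.26 and 1.78, Usp17ld at 0.922 and 0.797 and Usp17le at 1.32 and 1.71. No member passed 2 TPM in a control library. Dux itself was at 0.971 and 1.15 TPM. In bulk RNA, more cells that express a gene and more of its RNA per cell cannot be told apart, and this holds for every level given here.

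The family was highest in QKO cells, in which all members were far more abundant than in control. Usp17lb, the highest member, reached 542 and 538 TPM, and Usp17lc 386 and 336. Usp17la was at 237 and 218 TPM, Usp17le at 290 and 257 and Usp17ld at 101 and 88.7. All QKO libraries lay above all control libraries for every member. The log2 fold change on the log2(TPM + 1) scale was 8.22 ± 0.12 (SE) for Usp17lb, 7.17 ± 0.18 for Usp17lc, 7.15 ± 0.17 for Usp17la, 6.77 ± 0.16 for Usp17le and 5.69 ± 0.19 for Usp17ld. Since 1 TPM was added to each value, these figures understate the change of genes as low as these were in control. Members were called at a limma p, adjusted by Benjamini-Hochberg over all genes tested, below 0.05 and a log2 fold change of at least 1 in either direction. By that rule 5 of 5 members rose, where 10.1% of the 13862 genes tested were called higher. Dux was at 25.7 and 21.8 TPM in the same libraries.

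**Figure D1:**
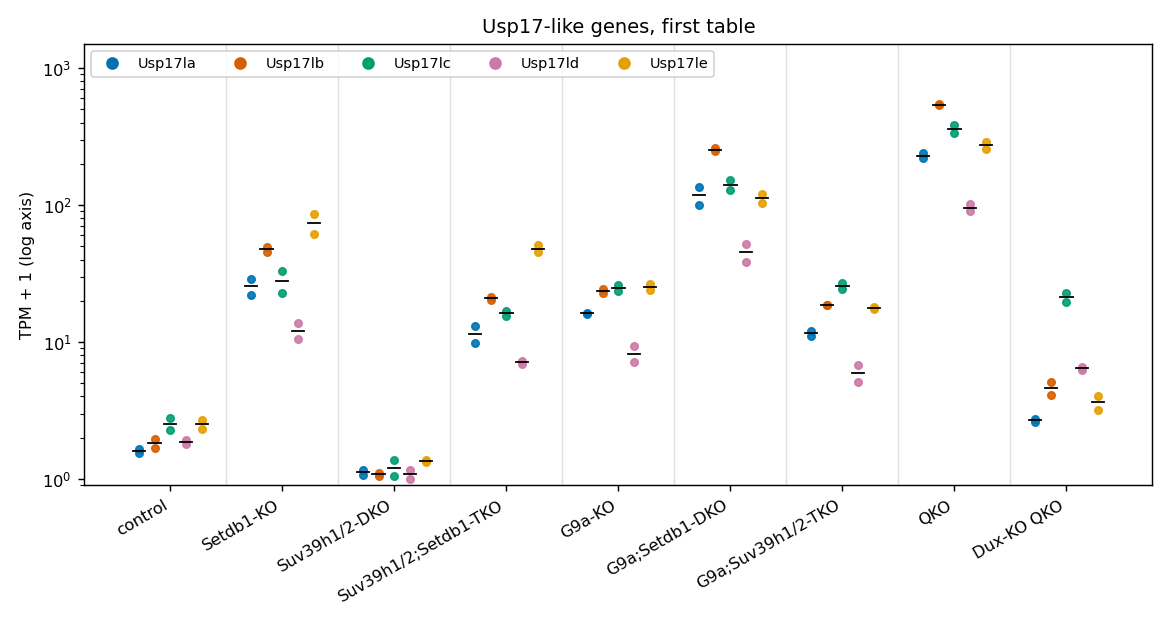
TPM of the 5 Usp17-like genes in the 9 groups of the first table, plotted as TPM + 1 on a log axis. Each point is 1 library (2 per group) and each bar the mean. The control and Suv39h1/2-DKO libraries sit at the bottom, the QKO libraries at the top, and in Dux-KO QKO Usp17lc stands above the other members.

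Loss of Setdb1 alone raised all members. Usp17le, the highest here, was at 60.0 and 85.4 TPM in Setdb1-KO, Usp17lb at 44.6 and 48.2, and Usp17lc at 21.8 and 32.1. Usp17la was at 21.1 and 27.9 TPM and Usp17ld at 9.48 and 12.8. The groups did not overlap for any member. Log2 fold changes against control ran from 2.69 ± 0.19 (Usp17ld) to 4.85 ± 0.16 (Usp17le), and 5 of 5 members rose (limma), against 4.12% of all genes called higher. All percentages of genes given beside a count of members are in the direction of that count, or in both directions where no member or members on both sides were called. Dux was at 12.5 and 14.1 TPM.

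Loss of G9a alone also raised all members, with a flatter profile. Usp17lb stood at 23.4 and 21.9 TPM in G9a-KO, Usp17lc at 22.4 and 25.0, and Usp17le at 22.8 and 25.6. Usp17la was at 15.3 and 15.0 TPM and Usp17ld at 8.28 and 6.12. Usp17lb, Usp17lc and Usp17le overlapped one another and all lay above control. The log2 fold changes were 2.13 ± 0.19 for Usp17ld and 3.30 to 3.70 for the other members, and 5 of 5 rose (limma), against 5.52% of all genes. Dux was only at 2.76 and 2.91 TPM here, a log2 difference of 0.90 ± 0.12 from control that did not reach the size threshold (adjusted p = 3.9e-05, limma).

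After loss of Suv39h1 and Suv39h2 alone no member rose. Usp17lc was at 0.370 and 0.0508 TPM in Suv39h1/2-DKO, Usp17le at 0.327 and 0.363, and Usp17la at 0.168 and 0.0744. Usp17lb was at 0.0577 and 0.102 TPM and Usp17ld at 0 and 0.161. Every one of these values lay below both control libraries of the same member. Usp17lc fell by 1.06 on the log2(TPM + 1) scale (SE 0.18, adjusted p = 0.0053, limma), and the other 4 had differences of -0.52 to -0.90 that missed the rule, so 1 of 5 members was called, against 0.404% of all genes. With a pseudocount of 0.1 all 5 members were called lower. With 1 library left out the count was 0 (without replicate 2 of control or replicate 2 of Suv39h1/2-DKO) to 2 (without replicate 1 of control). Dux was at 0.266 and 0.207 TPM.

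When Setdb1 was lost on top of Suv39h1/2, all members rose. Usp17le was at 49.9 and 44.2 TPM in Suv39h1/2;Setdb1-TKO, Usp17lb at 20.4 and 19.4, and Usp17lc at 16 and 14.4. Usp17la was at 12.1 and 8.75 TPM and Usp17ld at 6.21 and 5.96. The rise over Suv39h1/2-DKO was called for 5 of 5 members (limma, 4.65% of all genes), with log2 fold changes of 2.72 ± 0.19 (Usp17ld) to 5.16 ± 0.16 (Usp17le). Against control it was also 5 of 5 (4.74%), from 1.93 to 4.26. The difference between the Setdb1 effects with and without Suv39h1/2, an interaction in the same model, was called for 0 of 5 members (limma, 0.166% of all genes; 2 at an unadjusted p below 0.05), with estimates of -0.64 to 0.30 and 95% intervals that reached from -1.15 to 0.85.

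G9a and Setdb1 loss together gave levels well above either alone. In G9a;Setdb1-DKO, Usp17lb was at 259 and 246 TPM, Usp17lc at 127 and 150, and Usp17la at 99.0 and 134. Usp17le was at 103 and 119 TPM and Usp17ld at 37.5 and 50.8. Against control 5 of 5 members rose (limma, 9.58% of all genes), by 4.59 ± 0.19 (Usp17ld) to 7.12 ± 0.12 (Usp17lb). Against G9a-KO 5 of 5 rose (4.62%), by 2.15 to 3.42. Against Setdb1-KO 4 of 5 rose (6.35%), by 1.9 to 2.42, and Usp17le, the exception, differed by 0.62 ± 0.16 (adjusted p = 0.0095). Dux was at 16.3 and 15.9 TPM, which did not differ from Setdb1-KO beyond the threshold (0.26, 95% interval 0.01 to 0.52).

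In G9a;Suv39h1/2-TKO the family stayed near its level in G9a-KO. Usp17lc was at 23.2 and 26.0 TPM, Usp17lb at 17.5 and 17.5, and Usp17le at 16.4 and 16.9. Usp17la was at 10.1 and 11.1 TPM and Usp17ld at 4.09 and 5.81. Against control 5 of 5 members rose (limma, 4.65% of all genes). Against G9a-KO 0 of 5 were called (1.61%; 4 were lower at an unadjusted p below 0.05), with differences of -0.52 to 0.05 and intervals within -0.87 to 0.44. QKO exceeded G9a;Suv39h1/2-TKO in 5 of 5 members (6.45%), by 3.82 to 4.87, and Suv39h1/2;Setdb1-TKO in 5 of 5 (5.72%), by 2.51 (Usp17le) to 4.70 (Usp17lb). QKO also exceeded G9a;Setdb1-DKO in 4 of 5 (1.46%), by 1.10 to 1.38. There Usp17la, at a difference of 0.97 ± 0.17 and an adjusted p of 0.0011, fell short of the size threshold.

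The members' responses to the paired loss were not the sum of the single ones on the log2(TPM + 1) scale. With Suv39h1/2 present the interaction of Setdb1 and G9a loss was -2.71 ± 0.23 for Usp17le, -1.29 ± 0.17 for Usp17lb and -1.12 ± 0.24 for Usp17la, so 3 of 5 members were called lower than additive (limma, 1.8% of all genes). Usp17lc (-0.96) and Usp17ld (-0.23) were not called. After median-ratio scaling Usp17lc passed too, at -1.06 (adjusted p = 0.0038, limma). Without Suv39h1/2 the interaction was -1.20 ± 0.23 for Usp17le and 1.3 ± 0.27 for Usp17ld, so 1 member was called on each side (5.06%). These latter values depend on the pseudocount, since the Suv39h1/2-DKO values were close to 0. With 0.1 added in place of 1, the interaction of Usp17la (0.96), Usp17lb (0.60) and Usp17ld turned from above to below 0.

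**Figure D2:**
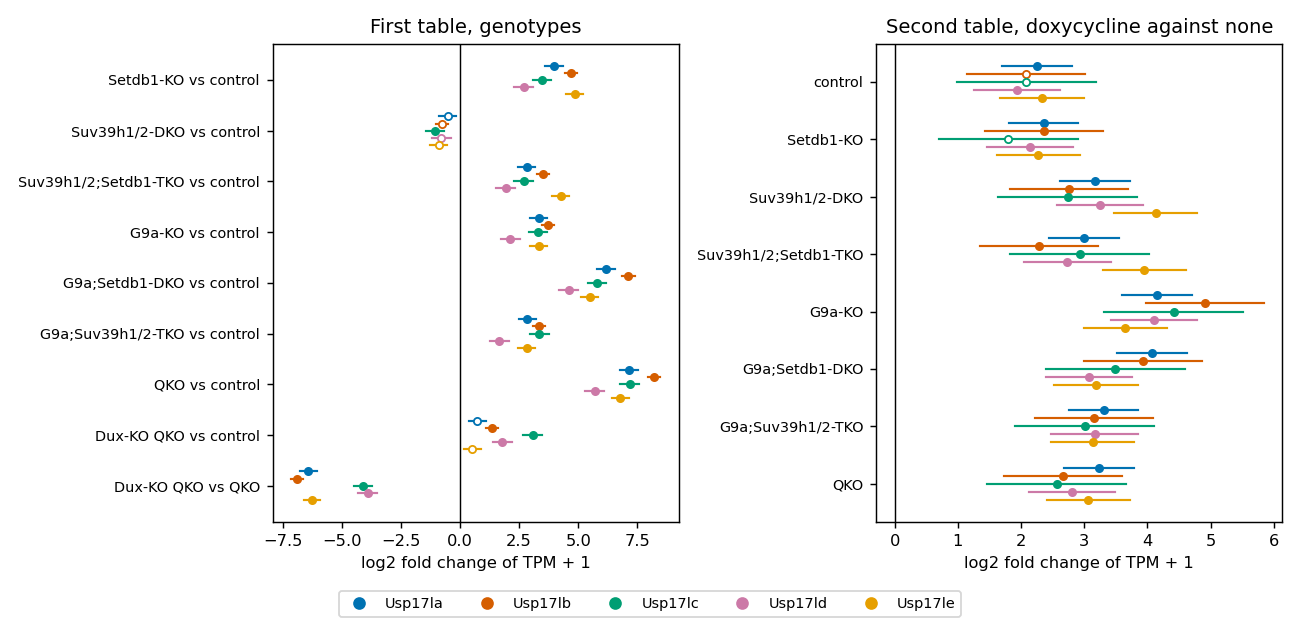
Log2 fold changes of TPM + 1 with 95% intervals from limma for the 5 genes, for genotypes of the first table (left) and for dox against no dox in the second (right). Filled points passed the rule of an adjusted p below 0.05 and a log2 fold change of at least 1, open points did not. All QKO values lie to the right of those of single knockouts, and Dux-KO QKO against QKO lies below 0 for all members.

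Every member was lower in Dux-KO QKO than in QKO, but to unequal degrees. Usp17lb was at 3.11 and 4.1 TPM there, Usp17la at 1.59 and 1.76, and Usp17le at 3.05 and 2.20. Usp17lc was at 21.8 and 18.5 TPM and Usp17ld at 5.62 and 5.22. The drop on the log2 scale was -6.88 ± 0.12 for Usp17lb, -6.42 ± 0.17 for Usp17la and -6.25 ± 0.16 for Usp17le, but -4.1 ± 0.18 for Usp17lc and -3.90 ± 0.19 for Usp17ld. All 5 members fell (limma, 1.83% of all genes). The 95% intervals of the first 3 (-7.14 to -5.90) and of the other pair (-4.49 to -3.49) did not overlap, although the difference between members was not tested. These 2 sets match the 2 clusters on chromosome 7, and Usp17lc and Usp17ld are also the members that share many read-length windows.

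Against control cells, Dux-KO QKO kept part of the rise. Usp17lc was higher by 3.07 ± 0.18, Usp17ld by 1.79 ± 0.19 and Usp17lb by 1.33 ± 0.12, so 3 of 5 members rose (limma), where 16.8% of all genes were called higher. Usp17la (0.73, adjusted p = 0.0021) and Usp17le (0.52, adjusted p = 0.015) were under the size threshold. With a pseudocount of 0.1 Usp17la was called too (1.32, adjusted p = 0.00014, limma). Dux was listed at 0 in both Dux-KO QKO libraries. The median of all genes was 0.22 higher in Dux-KO QKO than in QKO and 0.15 higher than in control, and rescaling by median ratios gave the same counts of 5 and 3.

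The second table asks what a controlled source of Dux does to the family in each genotype. Whether its levels can be compared one by one with those of the first table, deposited separately, was not tested, so they were not compared. Without dox, Tet-on-Dux control cells had Usp17le at 9.97 and 12.4 TPM, Usp17lc at 6.64 and 3.89, and Usp17ld at 3.11 and 3.56. Usp17la was at 1.94 and 2.96 TPM and Usp17lb at 2.56 and 1.41. The transgene itself was detected without dox, at 0.577 to 4.51 TPM over the 16 libraries, and its part in these levels was not tested.

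Among the lines without dox, those lacking G9a had the higher levels. In QKO Usp17lb stood at 120 and 97.4 TPM, in G9a;Setdb1-DKO at 40.3 and 69.4, in G9a;Suv39h1/2-TKO at 39.2 and 22.4, and in G9a-KO at 8.09 and 13.9. The 8 libraries of lines with G9a had 0.435 to 2.56 TPM of it, so the 2 sets did not overlap. Against control without dox, 5 of 5 members rose in QKO (limma, 6.59% of all genes), in G9a;Setdb1-DKO (7.35%) and in G9a;Suv39h1/2-TKO (2.99%). In G9a-KO 2 of 5 rose (3.07%), Usp17la by 2.11 ± 0.26 and Usp17lb by 1.99 ± 0.45. Usp17lc, Usp17ld and Usp17le had differences of 0.76, -0.11 and 0.77 there. Leaving out replicate 2 of G9a-KO without dox took the last count to 1, and leaving out replicate 2 of control or replicate 1 of G9a;Suv39h1/2-TKO, all without dox, took that of G9a;Suv39h1/2-TKO to 3.

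With Setdb1 alone lost in these Dux-deleted lines, 0 of 5 members were called (limma, 2.52% of all genes), also 0 at an unadjusted p below 0.05. Usp17le was at 9.65 and 12.9 TPM in Setdb1-KO without dox and Usp17lb at 1.68 and 2.21, overlapping control. Differences were -0.64 to 0.24, with intervals from -1.32 to 1.34. The lines that keep G9a but lack Suv39h1/2 were lower. Usp17le was at 3.63 and 4.83 TPM in Suv39h1/2-DKO and at 2.3 and 2.03 in Suv39h1/2;Setdb1-TKO. In Suv39h1/2-DKO 3 of 5 members fell (1.32%), Usp17la by 1.19, Usp17ld by 1.53 and Usp17le by 1.22. In Suv39h1/2;Setdb1-TKO 4 of 5 fell (2.34%), by 1.32 (Usp17la) to 1.94 (Usp17le), all but Usp17lb. The first count was 1 without replicate 2 of control or replicate 1 of Suv39h1/2-DKO. The transgene was also low in these 4 libraries, at 0.577 to 1.86 TPM against 1.48 to 4.51 in the other 12, with overlap, and its part in the result was not tested.

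**Figure D3:**
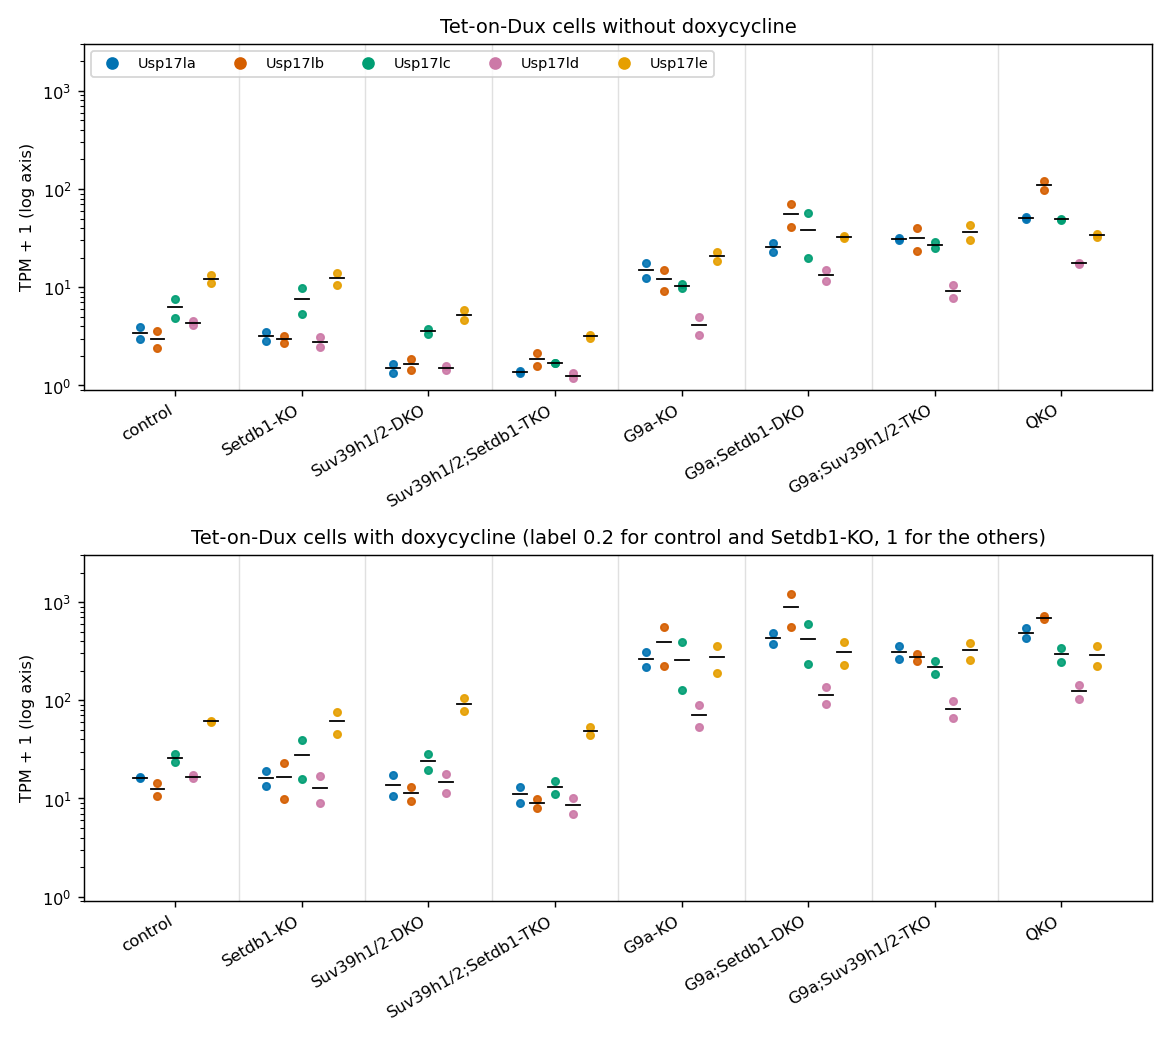
TPM + 1 (log axis) of the 5 genes in Tet-on-Dux cells without dox (top) and with dox (bottom), by genotype. Points are libraries (2 per group) and bars means. With dox the 8 libraries lacking G9a stand above the 8 that keep it for every member, and Usp17le is the top member in those that keep it.

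Dox raised at least 3 of the 5 members in every genotype. In control cells Usp17le went to 61.2 and 58.9 TPM, Usp17lc to 27.3 and 22.7, and Usp17ld to 15.0 and 16.2. Usp17la went to 15.0 and 15.6 TPM and Usp17lb to 13.5 and 9.60. No dox library of control overlapped one without dox in any member. Called were 3 of 5 members, Usp17la (2.26 ± 0.26), Usp17ld (1.94 ± 0.33) and Usp17le (2.33 ± 0.32), where only 0.181% of all genes were called, all as higher (limma). Usp17lb (2.08 ± 0.45, adjusted p = 0.069) and Usp17lc (2.08 ± 0.53, adjusted p = 0.23) had similar estimates with larger errors and were not called. Libraries of the same number without and with dox deviated together in every genotype, and with each genotype and replicate number as a block, a fit added after the values were seen, all 5 members rose in control (limma, 0.347% of all genes called higher). There Usp17lb had an adjusted p of 0.00034 and Usp17lc one of 0.0028. Without the 6 libraries of high Snhg level, 1 of them a control library without dox, all 5 were called, as they were after median-ratio scaling. Leaving out a single library lowered the count of members called in control in some fits and raised it in others. The median log2 difference of all genes with dox was -0.15 in control, -0.13 in G9a;Suv39h1/2-TKO, -0.22 in G9a;Setdb1-DKO and -0.21 in QKO.

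In Setdb1-KO, at the same dose label of 0.2, Usp17le went to 44.4 and 75.5 TPM and Usp17lb to 8.92 and 21.8. The higher value of each came from replicate 2, a library of high Snhg level in which the transgene was also higher (49.5 TPM against 19.3 in replicate 1), and the part of either in the result was not tested. By the rule 4 of 5 members rose (limma, 0.166% of all genes), by 2.14 to 2.36, and Usp17lc did not pass at 1.79 ± 0.53. With the block within genotype Usp17lc passed too (adjusted p = 0.011, limma). This count was 2 without the 6 libraries, 2 without replicate 2 of Setdb1-KO without dox, and 1 without replicate 2 of Setdb1-KO with dox. The dox response differed from that of control for 0 of 5 members (limma, 0% of all genes), also 0 at an unadjusted p below 0.05, with differences of -0.29 to 0.28 and intervals from -1.85 to 1.59.

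At the dose label of 1, dox raised 5 of 5 members in all 6 genotypes (limma). The percentage of all genes called higher was 0.427% in Suv39h1/2-DKO, 0.246% in Suv39h1/2;Setdb1-TKO, 0.941% in G9a-KO, 0.753% in G9a;Setdb1-DKO, 0.456% in G9a;Suv39h1/2-TKO and 0.384% in QKO. Log2 fold changes of Usp17lb were 2.77 and 2.28 in the first pair of genotypes and 4.91, 3.93, 3.16 and 2.67 in the 4 without G9a, each with an SE of 0.45. Those of Usp17le were 4.13 and 3.95 with G9a and 3.65, 3.19, 3.14 and 3.06 without it, each with an SE of 0.32. The counts of Suv39h1/2-DKO, Suv39h1/2;Setdb1-TKO and QKO were less firm, dropping to 3 when 1 library was left out. These were replicate 1 without or replicate 2 with dox of Suv39h1/2-DKO, any of the 4 libraries of Suv39h1/2;Setdb1-TKO, and replicate 2 without dox of QKO.

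Without a block no difference between these dox responses passed the rule. Compared with Suv39h1/2-DKO, at the same dose label, the response of Usp17lb was larger in G9a-KO by 2.15 ± 0.63 (95% interval 0.83 to 3.47), with a limma adjusted p over all genes of 1. With the block within genotype it passed, at an SE of 0.33 and an adjusted p of 0.017 (limma), where 0.203% of all genes were called higher and no other member was called in any of these differences. In G9a;Setdb1-DKO, G9a;Suv39h1/2-TKO and QKO the difference for Usp17lb was 1.17, 0.39 and -0.10, with intervals from -1.42 to 2.49. For Usp17le it was -0.48 in G9a-KO and -0.94 to -1.07 in the other 3. Called were 0 of 5 members in each (limma), as were 0.0145%, 0.0145%, 0% and 0% of all genes, and 3, 2, 1 and 1 members had an unadjusted p below 0.05. Intervals this wide do not show that the responses are alike. Suv39h1/2;Setdb1-TKO against Suv39h1/2-DKO gave 0 of 5 as well (0%; 0 at an unadjusted p below 0.05), with differences of -0.51 to 0.19 and intervals from -1.80 to 1.74.

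With dox, levels differed widely between the lines at that dose label, a set of comparisons added after the values had been seen. Usp17lb was at 8.49 and 12.1 TPM in Suv39h1/2-DKO and 7.08 and 8.93 in Suv39h1/2;Setdb1-TKO. It was at 220 and 556 TPM in G9a-KO, 557 and 1216 in G9a;Setdb1-DKO, 297 and 252 in G9a;Suv39h1/2-TKO and 673 and 713 in QKO. The lowest G9a-lacking library was thus at 220 TPM and the highest with G9a at this dose at 12.1. Usp17la had 8.01 to 16.2 TPM in the 4 libraries with G9a and 218 to 537 in the 8 without. The gap was smaller for Usp17le, with 43.7 to 105 TPM against 190 to 390.

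Against Suv39h1/2-DKO with dox, 5 of 5 members were higher in each of the 4 G9a-lacking lines (limma), where 7.44% of all genes were called higher for G9a-KO, 9.18% for G9a;Setdb1-DKO, 3.67% for G9a;Suv39h1/2-TKO and 6.57% for QKO. The 4 comparisons share the 2 libraries of Suv39h1/2-DKO. Usp17lb differed by 4.97, 6.21, 4.62 and 5.96 in that order (SE 0.45), Usp17la by 4.28, 4.98, 4.52 and 5.16 (SE 0.26), and Usp17le by 1.51, 1.71, 1.80 and 1.64 (SE 0.32). Usp17lc differed by 3.19 to 3.99 and Usp17ld by 2.28 to 3.09. The transgene was not more abundant in these lines, at 25.4 to 58.0 TPM in the 8 libraries against 59.2 and 71.5 in Suv39h1/2-DKO.

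Setdb1 status made no called difference with dox. The count of members was 0 of 5 for Setdb1-KO against control (2.63% of all genes), Suv39h1/2;Setdb1-TKO against Suv39h1/2-DKO (1.72%), G9a;Setdb1-DKO against G9a-KO (4.14%) and QKO against G9a;Suv39h1/2-TKO (3.37%), by limma. At an unadjusted p below 0.05 the counts were 0, 2, 3 and 2. The nearest was Usp17lb in the last pair, at 1.34 ± 0.45 (adjusted p = 0.063, limma). It passed with median-ratio scaling (adjusted p = 0.020), with the replicate number as a block (adjusted p = 0.044) and without the 6 libraries of high Snhg level (adjusted p = 0.0061), and also with 1 library of several other dox groups left out. In G9a;Setdb1-DKO against G9a-KO it differed by 1.23 ± 0.45 (adjusted p = 0.087).

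Replicates of G9a-KO and G9a;Setdb1-DKO with dox were far apart. The summed TPM of the 5 members was 805 and 1699 in the first and 1480 and 2822 in the second, and in both the higher library was replicate 2, of high Snhg level. The MERVL-sfGFP reporter, named for the MERVL element of the 2-cell program, moved with them, at 96.9 and 227 TPM and at 109 and 283. The transgene did not, at 55.5 and 58.0 and at 39.6 and 40.4 TPM. What part the state of these libraries has in the result was not tested. Without all 6 such libraries the comparisons of the 4 G9a-lacking lines with Suv39h1/2-DKO still called 5 of 5 members each.

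**Figure D4:**
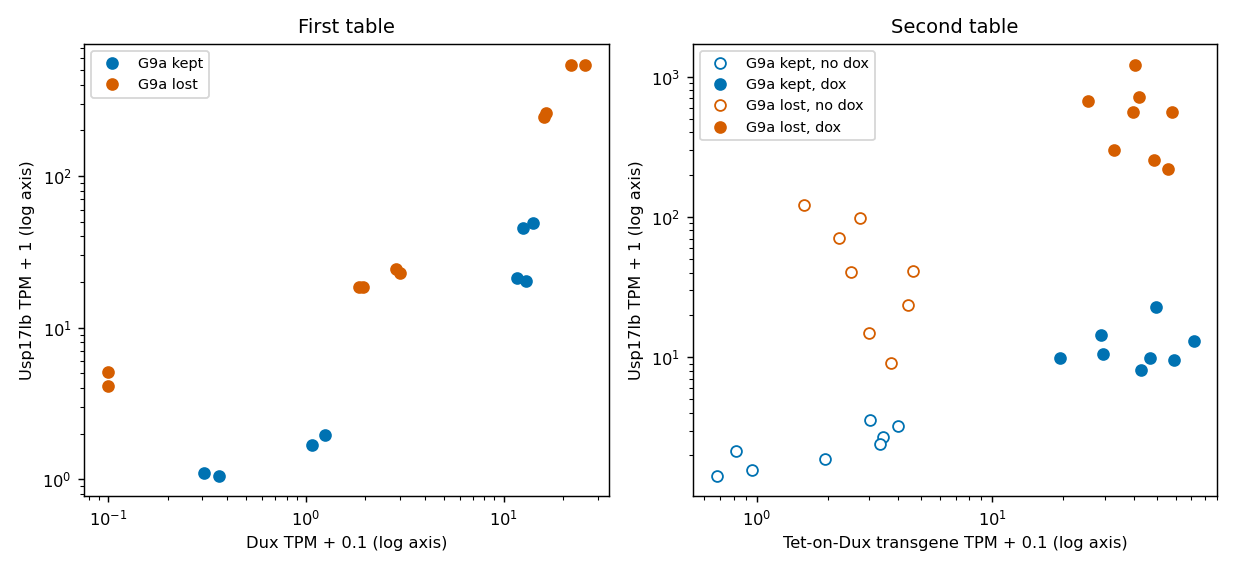
Usp17lb (TPM + 1) against Dux in the first table (left) and against the Tet-on-Dux transgene in the second (right, open points without and filled with dox), each point 1 library, log axes, orange where G9a is lost. In both tables the libraries lacking G9a lie above those with G9a at a like level of Dux or transgene.

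Like levels of Usp17lb came with unlike levels of Dux. In the first table G9a-KO had Dux at 2.76 and 2.91 TPM with Usp17lb at 23.4 and 21.9, while Suv39h1/2;Setdb1-TKO had Dux at 11.6 and 12.8 with Usp17lb at 20.4 and 19.4. Over the 9 group means of log2(TPM + 1), Usp17lb had a Pearson r of 0.886 with Dux and 0.998 with Usp17la. Over the 16 groups of the second table it was 0.542 with the transgene, 0.875 with MERVL-sfGFP and 0.987 with Usp17la. Groups share lines and tables here, so these are descriptions.

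The make-up of the family differed between libraries with and without G9a. TPM allow members to be compared, since they are per length. With dox, Usp17le was the highest member in 8 of 8 libraries that keep G9a and gave 44.5% to 62.2% of the summed TPM, and in the 8 without G9a it gave 13.4% to 28.6%. Without dox its share was 41.1% to 52.6% (highest in 8 of 8) and 11.9% to 36.9% (highest in 3 of 8). In neither state did the ranges overlap. In the first table, among libraries with Dux, it was 27.3% to 48.3% with G9a, highest in 6 of 8 libraries. Without G9a it was 16.4% to 27.4% there, highest in 1 of 8, and the ranges touched.

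In most libraries where G9a was lost, though not in Dux-KO QKO, Usp17lb took the leading place. Its share was 18.8% to 43.1% with dox (highest in 7 of 8 libraries) against 6.82% to 12.8% where G9a was kept, over both dose labels. Without dox the ranges overlapped, at 13.6% to 45.1% (highest in 5 of 8) and 5.65% to 24.0%. In the first table, among libraries with Dux, it was 22.6% to 41.4% without G9a (highest in 5 of 8). With G9a it was 6.26% to 28.4% there (highest in 0 of 8). In Dux-KO QKO it was 8.84% and 12.9%. Usp17lc gave 58.2% and 62.0% of the sum in Dux-KO QKO and at most 40.1% in any other library of that table. Usp17la and Usp17ld were the highest member in no library of either table. Shares were set by the authors' division of reads among copies as well, which is not given.

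**Figure D5:**
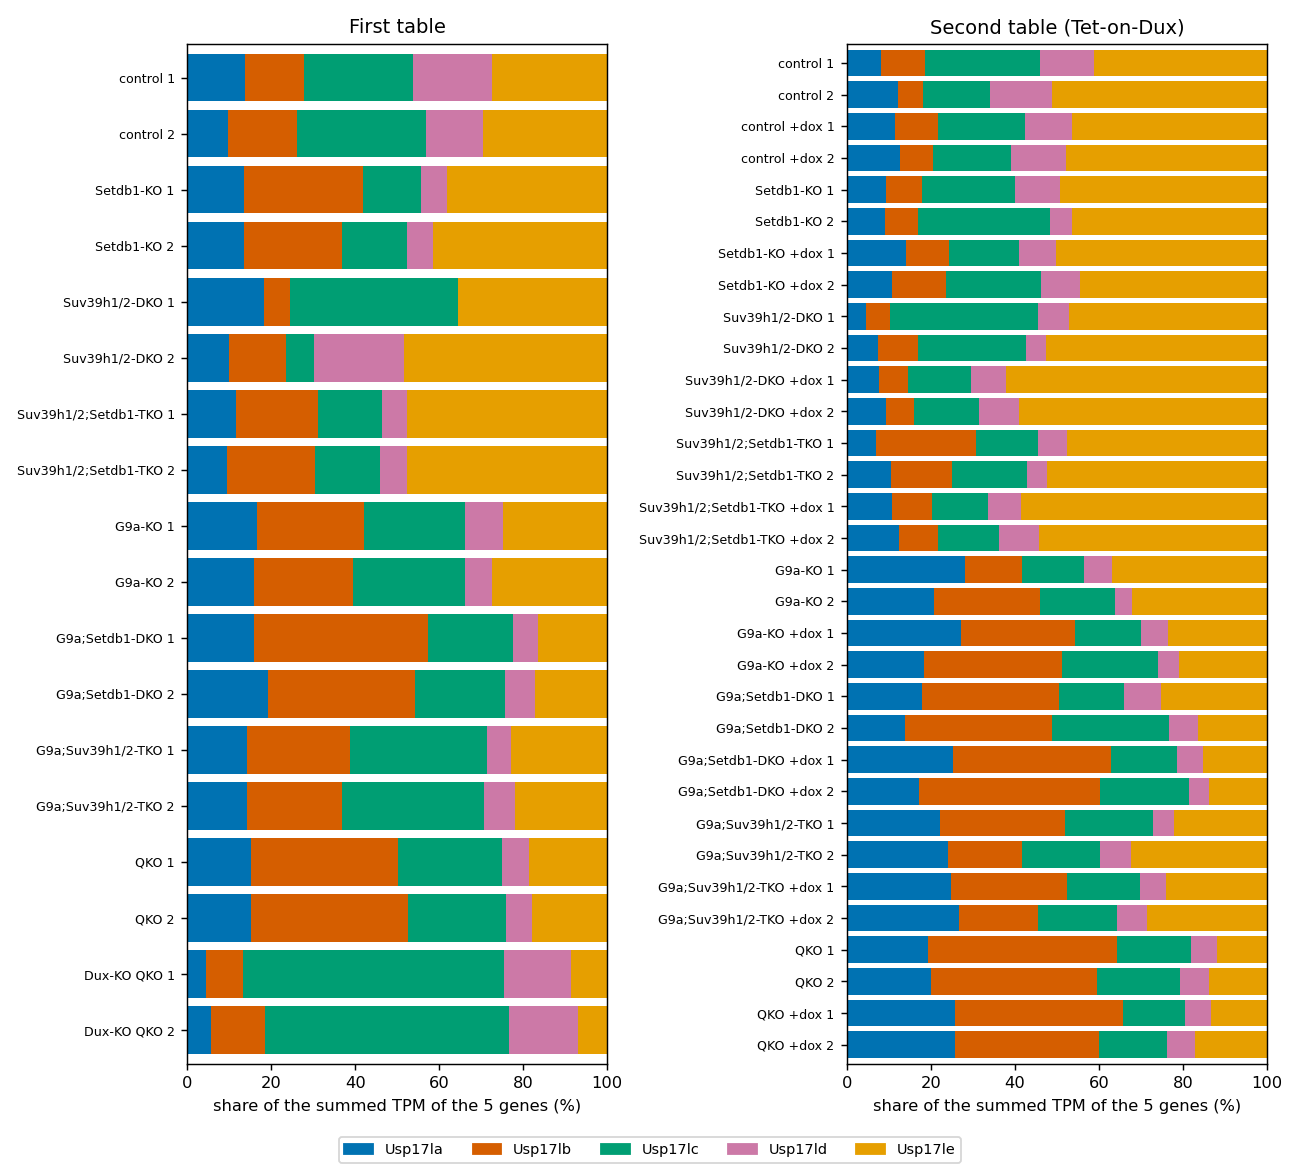
Share of each gene in the summed TPM of the 5 Usp17-like genes, 1 bar per library, first table left and second right (+dox marks dox, the last digit the replicate). Usp17le (yellow) is widest in most libraries that keep G9a, Usp17lb (orange) in most libraries without G9a, and Usp17lc (green) in Dux-KO QKO. Sums in control and Suv39h1/2-DKO of the first table are only 0.751 to 5.81 TPM.

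Summed over the 5 genes, the family stood at 4.85 and 5.81 TPM in control of the first table and at 1556 and 1438 in QKO. The order of group means between them was Suv39h1/2-DKO (0.837, the lowest of all), control (5.33), Dux-KO QKO (33.5), G9a;Suv39h1/2-TKO (74.3), G9a-KO (93.0), Suv39h1/2;Setdb1-TKO (98.6), Setdb1-KO (182), G9a;Setdb1-DKO (662) and QKO (1497). Only G9a-KO and Suv39h1/2;Setdb1-TKO, with 92.3 to 93.6 and 92.8 to 105 TPM, overlapped as neighbours. These sums are a description, with no test.

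Other ubiquitin-specific proteases were counted beside the family. Of 48 tested from a list of 50 USP genes outside the family, 3 (6.25%) rose and 0 fell in QKO against control (limma, median difference -0.11 against -0.05 for all genes), beside 5 of 5 Usp17-like genes and 10.1% of all genes called higher. A share this near that of all genes is no result about the list. Usp26, a germ-cell USP, went from 0.224 to 3.96 TPM (mean), Usp14, which works at the proteasome, from 96.0 to 272, and Usp29 from 0.103 to 1.79. In Dux-KO QKO against QKO 0 of 48 were called (14 were higher at an unadjusted p below 0.05; 6.54% of all genes were called), whereas 5 of 5 Usp17-like genes fell. With dox in the control line it was 0 of 48 (2 were lower at an unadjusted p below 0.05; 0.181% of all genes were called), beside 3 of 5 Usp17-like genes that rose.

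Of 8 tested genes whose proteins are described as substrates of USP17 or DUB3, 1 (12.5%, beside 10.1% of all genes) rose in QKO, Snai1, an inducer of epithelial-mesenchymal transition, from 2.94 to 16.4 TPM (2.06 ± 0.25, adjusted p = 8.3e-06, limma). Snai1 was at 22.3 TPM (mean) in Dux-KO QKO, where Usp17lb was at 3.11 and 4.1. RNA levels carry no information on the ubiquitin of these proteins. Among 7 tested cytokine receptor and JAK-STAT5 genes, the pathway under which DUB genes were first described, 0 rose in QKO (limma) and Stat5b fell by 1.03. Of all genes 10.1% were called higher and 15.6% in either direction. At an unadjusted p below 0.05, 1 of the 7 was higher and 3 were lower. With 7 genes these counts are no result about the pathway.

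The family moved with most of the 2-cell genes listed for comparison, but not in every comparison. Of 13 such genes 13 rose in QKO against control (limma, 10.1% of all genes), with a median of 5.71. In Dux-KO QKO against QKO 12 fell (1.83%). The largest rises in QKO were those of Obox4, a homeobox gene (7.29 ± 0.14), Gm5662 (6.54 ± 0.20) and Zscan4d, one of several near-identical zinc-finger genes that can share reads (6.36 ± 0.19), against 8.22 for Usp17lb. With dox in control 7 of 13 rose (limma, 0.181% of all genes), led by Gm5662 (4.18 ± 0.56), Zscan4c (3.96 ± 0.43) and Zscan4f (3.96 ± 0.47). In Dux-KO QKO against control Zscan4c, Zscan4d and Zscan4f were called lower (limma), at -4.17, -2.27 and -4.73. Zfp352, Tcstv1, Tcstv3, Tdpoz3, Tdpoz4, Obox4, Gm5662 and Sp110 were called higher there, beside 21.2% of all genes called in either direction. The Usp17-like genes had differences of 0.52 to 3.07 in that comparison. This list was drawn up with earlier results of these data known and is no independent support.

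The 5 tested genes whose group means were most like those of Usp17lb in the first table were Spz1 (Pearson r 0.992), BC080695 (0.991), Scd3 (0.990), Gm20767 (0.988) and Gm4027 (0.987), over 9 groups. In the second they were Gm4971 (0.982), B020004J07Rik (0.981), Gm16513 (0.971), Snai2 (0.971) and Gm2022 (0.970), over 16 groups. No gene was in both sets. The groups share lines, and these are descriptions of likeness.

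Genes beside the clusters were called in some of the comparisons. Within 500 kb of a member the annotation holds 165 other genes, 117 of them olfactory receptors, and 5 were expressed enough to be tested: Hbb-bh1, Hbb-y, Trim12a, Trim12c and Trim30d. Of these, 0 were called in Setdb1-KO against control (limma, 6.28% of all genes), also 0 at an unadjusted p below 0.05. Called higher were 1 in QKO (Trim12c), 3 in G9a-KO (Hbb-bh1, Hbb-y and Trim12a) and 4 in G9a;Setdb1-DKO (all but Trim12a). Beside them 10.1%, 5.52% and 9.58% of all genes were called higher in these 3 comparisons. In G9a;Setdb1-DKO against Setdb1-KO all 5 rose (median 1.35, beside 6.35% of all genes). With dox against none 0 of 5 were called in all 8 genotypes, beside 0.166% to 1.05% of all genes. At an unadjusted p below 0.05 there were 2 in G9a-KO and 0 in the others. In Dux-KO QKO against QKO, where all members fell, 0 neighbours fell and Trim30d rose. Of all genes 1.83% were called lower there and 6.54% in either direction. With 5 genes these counts are no result about the region.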

How the data were processed

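Poly(A) RNA of 50 libraries was sequenced as stranded 150-base paired-end reads, per the labels' protocols. The authors deposited gene TPM in 2 tables of 18 and 32 libraries. Per the submitters' processing notes, STAR 2.7.10b, Bowtie2 2.3.4.1, RSEM 1.3.1, SAMtools 1.9 and mm10 were used. The role of each tool, the annotation and the handling of reads that fit several copies are not stated there. Every deposited column was matched to a sample by the column name in its label, and 0 columns had none.

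From these values log2(TPM + 1) was computed and fitted in R 4.3.3 with limma 3.58.1 (variance trend on the mean, no covariates), 1 model per table over its 9 or 16 groups (9 and 16 residual degrees of freedom), which share an estimate of the spread. The tests took in genes that reached 1 TPM in 2 or more libraries, 13862 and 13817, without the transgene and reporter rows; all 5 members passed in both tables. The Benjamini-Hochberg adjustment ran over all genes of a comparison. Errors are standard errors and 95% intervals of the model, with n = 2 libraries per group. The procedure was tested on simulated data. TPM hold no depth, so no counting interval is given.

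The members, the gene lists and the comparisons were chosen with earlier results of these data known. Named genes were all members, up to 3 called genes of each list with the largest change in QKO against control and with dox in the control line, the 5 genes whose group means correlated best with the member of highest mean, and called genes within 500 kb. Lists were not tested as sets. In the second table libraries of the same replicate number without and with dox correlated in their deviations from group means at 0.177 to 0.748 (median 0.518) in 8 of 8 genotypes, so these numbers were taken as pairs, from the data and not from the labels. A fit with each genotype and replicate number as a block (8 residual degrees of freedom) was added. Fibroblast markers reached 1 TPM for 1 to 3 of 8 genes per library and blood markers for 1 to 6 of 10. Alternatives were a pseudocount of 0.1, no filter, median-ratio scaling, the replicate number as a block over all lines, each library left out and, chosen after seeing the data, the second table without its 6 libraries of high Snhg level. Coordinates and transcripts are from GENCODE M21 (GRCm38), promoters from RefSeq. Alignments used Biopython 1.88, figures matplotlib 3.10.9.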

Additional observations from a re-analysis of the deposited data

Results flagged for a closer look

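In the first table the effect of Setdb1 loss differed between cells with and without G9a for some members, by a test of the interaction in the limma model. With Suv39h1/2 present the Setdb1 effect on the log2(TPM + 1) scale, without G9a minus with G9a, differed by -2.71 ± 0.23 (SE) for Usp17le, -1.29 ± 0.17 for Usp17lb and -1.12 ± 0.24 for Usp17la, with adjusted p-values of 7.6e-06, 0.00021 and 0.0084. In Usp17le the rise on Setdb1 loss was 4.85 with G9a and 2.15 without it. Leaving out a single library lowered the count of members called for this interaction in some fits and raised it in others. After median-ratio scaling Usp17lc was called as well, at -1.06 (adjusted p = 0.0038, limma).

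Without Suv39h1/2 the same difference was -1.20 ± 0.23 for Usp17le (adjusted p = 0.0035) and 1.3 ± 0.27 for Usp17ld (adjusted p = 0.0050). The value of Usp17ld turned to -1.01 with a pseudocount of 0.1. In each case 2 libraries per group entered the test, and G9a loss cannot be told apart from the lines that carry it.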

How the results depend on the processing

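Of the 40 planned and 8 added comparisons, the count of members called moved by more than 1.5 times in few, and single members are followed here only where the 95% interval excluded 0. With a pseudocount of 0.1, 5 members were called lower in Suv39h1/2-DKO against control (1 in the fit as reported) and 4 in the interaction of Setdb1 and G9a loss without Suv39h1/2 (2). In that interaction Usp17la turned to -1.18, Usp17lb to -1.87 and Usp17ld to -1.01. In the interaction of Setdb1 and Suv39h1/2 loss with G9a present, Usp17la turned to 0.49 and Usp17lb to 1.13. The dox response of Usp17la relative to Suv39h1/2-DKO turned to -0.19 in G9a-KO and -0.31 in G9a;Setdb1-DKO. Newly called with this pseudocount were also Usp17la in Dux-KO QKO against control (1.32) and Usp17lb for dox in control (2.52). Median-ratio scaling gave 5 members for dox in control (3), and 1 (0) in both G9a;Setdb1-DKO against G9a-KO and QKO against G9a;Suv39h1/2-TKO with dox. Without the libraries of high Snhg level the counts were 5 for dox in control, 2 for dox in Setdb1-KO (4) and 1 for QKO against G9a;Suv39h1/2-TKO with dox. Without a filter every count stayed within 1.5 times, though Usp17lb was no longer called for dox in Setdb1-KO (adjusted p = 0.053, limma) and in Suv39h1/2;Setdb1-TKO (adjusted p = 0.051, limma). The cause of these changes was not tested.

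Across lines replicate numbers were not taken as pairs. Same-numbered libraries of any pair of groups correlated in their deviations from group means at -0.059 to 0.622 (median 0.268) in the first table. In the second the range was -0.647 to 0.748 (median 0.124). Groups of the same prefix in the first table were not examined apart from the others, so pairing within a prefix there is unknown. A fit with the replicate number as a block over all lines gave 1 called member (0 as reported) in QKO against G9a;Suv39h1/2-TKO with dox, and in the other comparisons counts within 1.5 times of those reported. The block within genotype, which only comparisons of dox with none allow, gave 5 members for dox in control (3) and 1 for the dox response of G9a-KO minus Suv39h1/2-DKO (0). Beside Usp17lc for dox in Setdb1-KO it changed no other call.

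Leaving out each library in turn, with the lone library of a group assumed to vary like the others, gave 0 to 2 members for Suv39h1/2-DKO against control in the first table. Without dox it gave 1 to 3 for Suv39h1/2-DKO, 1 to 2 for G9a-KO and 3 to 5 for G9a;Suv39h1/2-TKO against control. For dox against none it gave 1 to 4 in Setdb1-KO and 3 to 5 in Suv39h1/2-DKO, Suv39h1/2;Setdb1-TKO and QKO. With dox it gave 0 to 1 for G9a;Setdb1-DKO against G9a-KO and for QKO against G9a;Suv39h1/2-TKO. The count for dox against none in control also fell in some of these fits and rose in others. So did those for QKO against G9a;Setdb1-DKO and for the interaction of Setdb1 and G9a loss with Suv39h1/2 present. The count for that interaction without Suv39h1/2 rose in some fits. Depth is unknown, and levels under 1 TPM limit every fold change from control.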
